A study of Homo sapiens with 8 samples.

Results

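The genes described here are 10 transcripts that ERK signalling is known to induce, taken from the gene table by their symbols from among the 60664 genes it lists. They are the MAP kinase phosphatases DUSP4, DUSP5 and DUSP6, the Sprouty genes SPRY2 and SPRY4, the Sprouty-related genes SPRED1 and SPRED2, and the output genes ETV5, PHLDA1 and EGR1. The rule goes by name, but the set was proposed with earlier results of these data known, so counts over the 10 are descriptions. The cells were THP-1, an established line from a human monocytic leukemia. Decitabine (DAC) is a nucleoside analogue that traps DNA methyltransferases once it is incorporated into DNA, so that methylation is lost as cells divide. RNA was sequenced from parental THP-1 cells and from a DAC-resistant line that was derived from them by repeated exposure to DAC, and each was treated with the solvent DMSO or with 1 µM DAC for 6 days. The labels give the genotype as WT in all 4 groups (parental DMSO, parental DAC, DAC-resistant DMSO and DAC-resistant DAC), and each group holds 2 libraries, which makes 8 in all. Resistance was thus represented by a single line of a single leukemia, and p-values measure the spread between the 2 libraries of a group, which the sample titles call biological replicates without saying what was repeated. Both parental and DAC-resistant controls received DMSO, and the question asked of each gene was whether DAC changed it in each line and whether the lines differed with and without the drug.

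In the RAS-ERK pathway, growth factor receptors load RAS with GTP through adaptors and exchange factors, RAS recruits RAF, RAF activates MEK, and MEK phosphorylates ERK. ERK then induces transcription factors such as EGR1 and ETV5 and, with them, a set of brakes on its own pathway: DUSP phosphatases remove the activating phosphates from ERK, Sprouty proteins act between receptor and RAS, and SPRED proteins bring neurofibromin to RAS so that its GTP is hydrolysed. Transcripts of these genes are widely used as a readout of ERK activity, and RAS mutations are common in monocytic leukemia. ERK phosphorylation itself was not measured in these libraries, and whether RAS is mutated in these cells was not examined here.

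In parental cells, the DUSP phosphatases, both Sprouty genes, SPRED1, PHLDA1 and EGR1 were 2.12-fold to 7.46-fold higher with DAC, and in DAC-resistant cells the largest ratio among the 10 genes with the same drug was 1.55, that of ETV5. All of these but SPRY4 and SPRED1 also passed the size threshold of the test in parental cells. The DAC-resistant line did not start from a uniform level. Under DMSO it held 9.87-fold more EGR1 than parental cells and 5.34-fold less DUSP4, while the other 8 genes differed by 2.49-fold or less. Levels are given in FPKM, which scales reads by the exon length of the gene and by the total of the library, so that levels of different genes may be set side by side. Folds are ratios of mean FPKM, and differences called log2 differences are on the log2(FPKM + 1) scale, which understates the change of genes near or under 1 FPKM.

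The start-site windows of 4 of the 6 genes called higher with DAC in parental cells are shown, since these genes moved together there and since the methylation that DAC lowers sits at CpG sites. The windows are the 250 bases before the RefSeq start site in GRCh38.p14, written 5′ to 3′ on the strand of the gene, and capitals mark matches to the motifs named below. Where more than 1 window was listed for a gene (3 for SPRY2 and 2 for SPRED2), 1 was used and the others were not searched. Windows of 7 of the 10 genes were used, that of DUSP4 was not used here, and the collection of start-site windows used here had no entry for DUSP5 and ETV5. The windows lie at chr12:89352502-89352751 on the minus strand for DUSP6, at chr13:80341127-80341376 on the minus strand for SPRY2, at chr12:76031777-76032026 on the minus strand for PHLDA1 and at chr5:138465229-138465478 on the plus strand for EGR1.
DUSP6: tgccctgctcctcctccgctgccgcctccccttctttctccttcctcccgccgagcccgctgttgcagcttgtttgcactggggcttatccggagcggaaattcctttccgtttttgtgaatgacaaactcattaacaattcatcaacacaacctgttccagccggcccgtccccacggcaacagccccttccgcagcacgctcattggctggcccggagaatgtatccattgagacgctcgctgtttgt
SPRY2: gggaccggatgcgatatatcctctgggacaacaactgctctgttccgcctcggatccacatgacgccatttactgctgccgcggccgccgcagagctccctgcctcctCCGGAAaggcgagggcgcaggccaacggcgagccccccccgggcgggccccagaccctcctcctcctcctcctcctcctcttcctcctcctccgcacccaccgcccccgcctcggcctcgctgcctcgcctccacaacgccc
PHLDA1: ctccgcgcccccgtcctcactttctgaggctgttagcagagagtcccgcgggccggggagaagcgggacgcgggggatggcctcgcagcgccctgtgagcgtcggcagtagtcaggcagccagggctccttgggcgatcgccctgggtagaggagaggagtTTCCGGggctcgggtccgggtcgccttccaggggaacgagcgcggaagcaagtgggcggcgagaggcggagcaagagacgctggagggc
EGR1: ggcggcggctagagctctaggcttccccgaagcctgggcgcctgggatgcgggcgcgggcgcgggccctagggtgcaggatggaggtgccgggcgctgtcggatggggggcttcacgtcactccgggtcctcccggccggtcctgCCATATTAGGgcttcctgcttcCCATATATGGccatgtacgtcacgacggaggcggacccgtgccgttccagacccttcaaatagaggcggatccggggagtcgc
Both strands were searched for TGACTCA (AP-1), TGACGTCA (CRE), CCGGAA (ETS core) and the CArG box, the site of serum response factor. The window of EGR1 held 2 CArG boxes, which do not overlap and lie 105 to 96 and 83 to 74 bases before the start, where 1.16% of 35116 windows hold any. Windows of SPRY2 and PHLDA1 each held 1 ETS core, 142 to 137 and 89 to 84 bases before the start, a motif found in 14.5% of windows. AP-1 (4.2% of windows) and CRE (1.65%) had no match in the 7 windows, and the windows of DUSP6, SPRY4, SPRED1 and SPRED2 had no match to any of the 4. CpG dinucleotides numbered 16 in the window of DUSP6, 19 in SPRED2, 22 in SPRY4, 23 in SPRY2, 25 in EGR1, 26 in PHLDA1 and 30 in SPRED1, against a median of 11 over all windows. At the ends of that range, 39.0% of all windows held more CpG than that of DUSP6 and 10.9% more than that of SPRED1. A match is a description of letters, and methylation of these windows was not analysed here.

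The libraries held 28768976 to 33461719 reads on genes, with the 2 parental DAC libraries the shallowest. Replicates correlated at 0.989 to 0.993 across genes and differed by more than counting noise. Each of the 12 markers of monocytic leukemia reached 1 FPKM in at least 1 library, and together they summed to 618 to 664 FPKM, while the 5 T cell markers stayed at 0.898 FPKM or less in sum. B cell markers summed to 5.39 to 7.51 FPKM in parental and 1.57 to 2.95 FPKM in DAC-resistant libraries, and erythroid markers to 2.97 or less. Epithelial and stromal markers summed to 0.644 to 0.756 FPKM in parental DMSO libraries and to 4.4 to 6.14 FPKM in the others. Most of this was COL1A1, a collagen chain, which like EGR1 was called higher with DAC in parental cells (log2 difference 1.68) and in DAC-resistant cells under DMSO (2.1), while EPCAM was at 0 reads in the DAC-resistant groups. The part of these markers in the results was not tested. In bulk RNA, fewer cells of a type and less RNA per cell cannot be told apart. Testing covered 14899 genes, those that reached 1 FPKM in 2 or more libraries. A gene was called where the unadjusted p from limma was 0.01 or lower and the log2 difference was 1 or more in size, and p-values were adjusted by the Benjamini-Hochberg method over all 14899 genes. With 2 libraries against 2, an exact permutation test cannot go below 0.333, so the tests lean on variances pooled across genes by limma. All 10 genes passed that filter, SPRED1 through 3 libraries (the first parental DAC library and the 2 DAC-resistant DAC libraries), DUSP4 through the 4 parental ones, and PHLDA1 through the 2 parental DAC libraries alone, so that PHLDA1 could pass only by being high there.

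**Figure D1:**
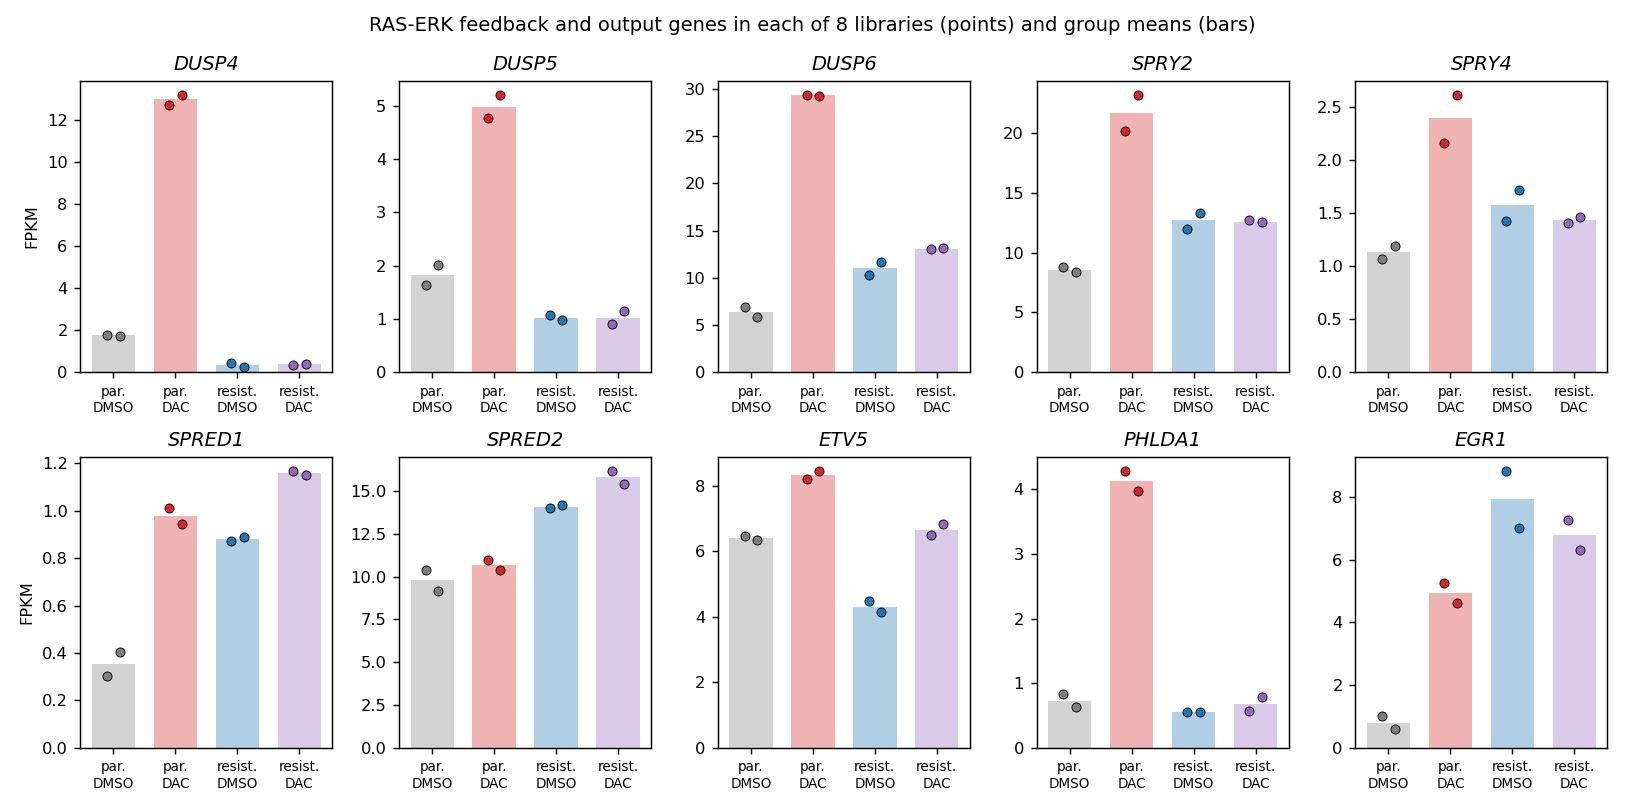
Level of each of the 10 genes in FPKM on a linear axis from 0, with a point for each of the 8 libraries and a bar for the mean of each group of 2. DUSP4, DUSP5, DUSP6, SPRY2, SPRY4, ETV5 and PHLDA1 stand highest in DAC-treated parental cells, SPRED1 and SPRED2 in DAC-treated DAC-resistant cells, and EGR1 in DAC-resistant cells under DMSO.

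DUSP4, a nuclear phosphatase of ERK and of other MAP kinases, gave the largest change with DAC of the 10 genes. It lies on chromosome 8 at 29333064 to 29350684 (GENCODE 44, GRCh38, minus strand). It stood at 1.75 and 1.73 FPKM in parental DMSO libraries and at 12.7 and 13.2 FPKM in parental DAC libraries. In DAC-resistant cells it stood at 0.427 and 0.224 FPKM under DMSO and at 0.336 and 0.386 FPKM under DAC. The parental groups did not overlap each other, every DAC-resistant library lay below every parental one, and the 2 DAC-resistant groups overlapped. DUSP4 rose 7.46-fold in parental cells, a log2 difference of 2.35 (SE 0.092, adjusted p = 3.4e-06 by limma), and 1.28% of genes changed more. The log2 difference in DAC-resistant cells was 0.04 (95% interval -0.18 to 0.26). Between the lines it was -1.05 under DMSO (adjusted p = 0.00012), a 5.34-fold lower level, and -3.36 under DAC (adjusted p = 5e-07), a 36.0-fold lower level. The DMSO call was close to its threshold and rested on the second DAC-resistant DMSO library: without it the log2 difference was -0.94. Over all alternatives the DMSO log2 difference ran from -2.48 to -0.94. The DAC-resistant libraries hold 49 to 98 reads of DUSP4, far above a count of 3 that would be read as not detected, and the parental DAC libraries hold 2545 and 2646.

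DUSP5 encodes a nuclear phosphatase specific for ERK (chromosome 10, 110497907 to 110511533, plus strand). Its level was 1.63 and 2.02 FPKM in parental cells under DMSO and 4.78 and 5.21 FPKM under DAC, and it was 1.07 and 0.971 FPKM in DAC-resistant cells under DMSO and 0.902 and 1.15 FPKM under DAC. As with DUSP4, the parental DAC libraries stood alone at the top, and DAC-resistant libraries lay below all parental ones and overlapped among themselves. DUSP5 rose 2.74-fold with DAC in parental cells, by 1.09 on the log2 scale (SE 0.1, adjusted p = 0.00018 by limma). This call was at the edge of the size threshold, with 0.99 when the first parental DMSO library was left out. In DAC-resistant cells the log2 difference was 0 (95% interval -0.25 to 0.25). DAC-resistant cells held less DUSP5 than parental cells under DAC (log2 difference -1.57, adjusted p = 2.1e-05), and under DMSO the log2 difference of -0.48 had an adjusted p of 0.0075 by limma but was too small for a call.

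DUSP6, a cytoplasmic phosphatase specific for ERK, had the highest mean of the 10 over the 8 libraries, 14.9 FPKM, through its parental DAC level alone, since SPRED2 had the higher mean in each of the other 3 groups. The gene lies on chromosome 12 at 89347235 to 89352501, minus strand, and its start-site window is shown above. It measured 6.87 and 5.82 FPKM in parental DMSO libraries, 29.4 and 29.3 FPKM in parental DAC libraries, 10.3 and 11.7 FPKM in DAC-resistant DMSO libraries and 13.0 and 13.2 FPKM in DAC-resistant DAC libraries. Here no 2 groups overlapped, and unlike DUSP4 and DUSP5 the DAC-resistant libraries lay between the parental groups. DAC raised DUSP6 4.63-fold in parental cells (log2 difference 2.05, SE 0.081, adjusted p = 3.5e-06 by limma). In DAC-resistant cells the ratio was 1.19 (log2 difference 0.24, 95% interval 0.04 to 0.43, adjusted p = 0.12). DAC-resistant cells were 1.73-fold above parental cells under DMSO (log2 difference 0.71, adjusted p = 0.00039), under the size needed for a call, and 2.24-fold below them under DAC (log2 difference -1.11, adjusted p = 3.3e-05). An antisense long noncoding RNA, ENSG00000274021, shares 1105 exonic bases with DUSP6, or 28.6% of its exon length, and was listed with 8 to 66 reads against 681 to 3124 for DUSP6. Whether the counting used the strand is not given in the sources used here.

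Together the 3 phosphatases summed to 10.2 and 9.57 FPKM in parental cells under DMSO and to 46.9 and 47.7 FPKM under DAC, and to 11.8 to 14.7 FPKM in the 4 DAC-resistant libraries. The makeup of that sum differed between the lines. DUSP6 was 60.8% to 67.1% of it in the 4 parental libraries and 87.3% to 91.3% in the 4 DAC-resistant ones, and DUSP4 was 17.0% to 27.7% in parental libraries and 1.74% to 3.62% in DAC-resistant ones. The ranges of the lines did not overlap for either gene, and no test was run on these shares.

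**Figure D2:**
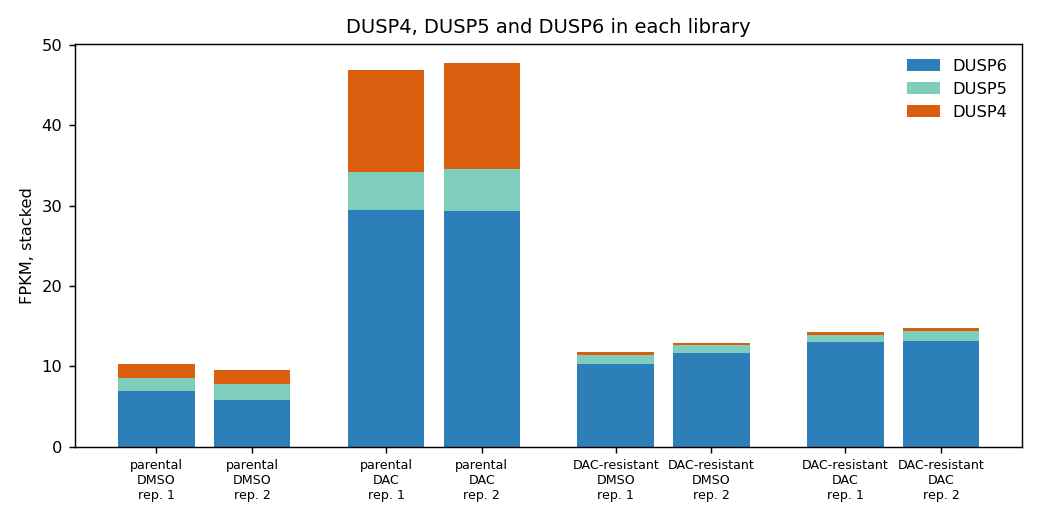
Stacked FPKM of DUSP6, DUSP5 and DUSP4 in each of the 8 libraries, on a linear axis from 0. The 2 parental DAC libraries reach 46.9 and 47.7 FPKM, the others stay at 14.7 or less, and the DUSP4 layer is thin in the 4 DAC-resistant libraries, at 0.427 FPKM or less.

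Of the Sprouty genes, SPRY2 was called with DAC in parental cells and SPRY4 was not. SPRY2, an inhibitor of receptor tyrosine kinase signalling to RAS (chromosome 13, 80335976 to 80341126, minus strand), stood at 8.76 and 8.4 FPKM in parental DMSO libraries and at 20.2 and 23.2 FPKM in parental DAC libraries. DAC-resistant cells held 12.0 and 13.3 FPKM under DMSO and 12.7 and 12.6 FPKM under DAC. The DAC-resistant groups overlapped each other and lay between the parental groups. SPRY2 rose 2.53-fold with DAC in parental cells (log2 difference 1.24, SE 0.074, adjusted p = 2.2e-05 by limma), and in DAC-resistant cells the log2 difference was 0 (95% interval -0.18 to 0.18). Between the lines SPRY2 differed by 0.51 on the log2 scale under DMSO (adjusted p = 0.0012) and by -0.73 under DAC (adjusted p = 0.00016), neither of the size of a call.

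SPRY4, a second Sprouty of the same function (chromosome 5, 142310427 to 142326455, minus strand), was a low transcript. It measured 1.06 and 1.19 FPKM in parental cells under DMSO and 2.16 and 2.61 FPKM under DAC, and 1.42 and 1.71 FPKM in DAC-resistant cells under DMSO and 1.4 and 1.46 FPKM under DAC. The order of the groups was that of SPRY2, with the DAC-resistant groups overlapping between the parental ones. In parental cells the ratio with DAC was 2.12 and the log2 difference 0.67 (SE 0.1, adjusted p = 0.0015 by limma), which was no call. SPRY4 is among the genes for which the added constant matters, since with a constant of 0.1 in place of 1 its log2 difference was 1.02 and it was called, as it was by voom. In DAC-resistant cells the log2 difference was -0.07 (95% interval -0.32 to 0.17). Between the lines it was 0.27 under DMSO (adjusted p = 0.06 by limma) and -0.48 under DAC (adjusted p = 0.0056).

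The SPRED genes, whose products carry neurofibromin to the membrane where it inactivates RAS, showed another order. SPRED1 (chromosome 15, 38252836 to 38357249, plus strand) was at 0.301 and 0.404 FPKM in parental DMSO libraries, 1.01 and 0.944 FPKM in parental DAC libraries, 0.871 and 0.889 FPKM in DAC-resistant DMSO libraries and 1.17 and 1.15 FPKM in DAC-resistant DAC libraries. The parental DMSO libraries were the low ones, with 74 and 95 reads, and no 2 groups overlapped. SPRED1 was 2.78-fold higher with DAC in parental cells and 2.49-fold higher in DAC-resistant than in parental cells under DMSO. Its log2 differences of 0.55 (adjusted p = 0.0024 by limma) and 0.48 (adjusted p = 0.0047) were under the size of a call at this low level, and with a constant of 0.1 they were 1.26 and 1.12, both calls. Voom on recovered reads gave 1.49 and 1.33, calls too. SPRED1 would not have passed the filter without the DAC-resistant DAC libraries, so the filter favoured a higher level in that line. In DAC-resistant cells DAC gave a log2 difference of 0.2 (95% interval -0.02 to 0.42), and under DAC the lines differed by 0.12 (95% interval -0.1 to 0.35).

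SPRED2 (chromosome 2, 65310851 to 65432637, minus strand) separated the lines, with every DAC-resistant library above every parental one. It stood at 10.4 and 9.17 FPKM in parental DMSO libraries and 11.0 and 10.4 FPKM in parental DAC libraries, and at 14.0 and 14.2 FPKM in DAC-resistant DMSO libraries and 16.2 and 15.4 FPKM in DAC-resistant DAC libraries. The parental groups overlapped, and the DAC-resistant groups did not. SPRED2 differed with DAC by 0.12 in parental cells (95% interval -0.03 to 0.27, adjusted p = 0.14 by limma), and the DAC-resistant cells gave 0.15 (adjusted p = 0.18). Between the lines it was 1.44-fold higher in DAC-resistant cells under DMSO (log2 difference 0.49, adjusted p = 0.00069) and 1.48-fold higher under DAC (log2 difference 0.52, adjusted p = 0.00036), both under the size of a call.

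Among the outputs, ETV5, an ETS transcription factor of the PEA3 group (chromosome 3, 186046314 to 186110318, minus strand), was higher with DAC in both lines. Parental cells held 6.46 and 6.35 FPKM under DMSO and 8.19 and 8.46 FPKM under DAC. DAC-resistant cells held 4.47 and 4.14 FPKM under DMSO and 6.49 and 6.83 FPKM under DAC. No 2 groups overlapped, and DAC-treated DAC-resistant cells came up to just above the level of untreated parental cells. The log2 difference with DAC was 0.33 in parental cells (SE 0.052, adjusted p = 0.0017 by limma) and 0.53 in DAC-resistant cells (SE 0.052, adjusted p = 0.0028), or 1.3-fold and 1.55-fold, neither of them a call by size. The difference of these DAC effects was 0.2 (95% interval 0.02 to 0.37, adjusted p = 0.065). DAC-resistant cells were lower than parental cells under DMSO (log2 difference -0.48, adjusted p = 0.00031) and under DAC (-0.28, adjusted p = 0.0027). ETV5 shares 164 exonic bases, 2.84% of its exon length, with DGKG on the same strand, which was listed with 231 to 508 reads.

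PHLDA1, a pleckstrin homology-like protein whose transcript is induced by ERK (chromosome 12, 76025447 to 76031776, minus strand), was near or under 1 FPKM except in DAC-treated parental cells. It measured 0.832 and 0.625 FPKM in parental DMSO libraries, 4.29 and 3.98 FPKM in parental DAC libraries, 0.552 and 0.551 FPKM in DAC-resistant DMSO libraries and 0.572 and 0.784 FPKM in DAC-resistant DAC libraries. The 6 other libraries lay between 0.551 and 0.832 FPKM, and the parental DAC pair stood apart above them. Its ratio with DAC in parental cells was 5.68 (log2 difference 1.57, SE 0.11, adjusted p = 3.8e-05 by limma), and a gene that passed the filter through these 2 libraries alone had to be higher there. In DAC-resistant cells the log2 difference was 0.11 (95% interval -0.15 to 0.37), and between the lines it was -0.15 under DMSO (adjusted p = 0.26) and -1.62 under DAC (adjusted p = 2e-05).

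EGR1, the immediate early zinc finger factor whose promoter boxes are shown above (chromosome 5, 138465479 to 138469303, plus strand), was lowest in untreated parental cells and highest in untreated DAC-resistant cells. Its level was 1.01 and 0.599 FPKM in parental cells under DMSO, from 100 and 57 reads, and 5.26 and 4.61 FPKM under DAC. In DAC-resistant cells it was 8.84 and 7.0 FPKM under DMSO and 7.25 and 6.31 FPKM under DAC. The parental DMSO libraries were low, all other libraries were high, and the DAC-resistant groups overlapped each other above the parental DAC libraries. EGR1 rose 6.15-fold with DAC in parental cells (log2 difference 1.73, SE 0.15, adjusted p = 0.00011 by limma) and was 9.87-fold higher in DAC-resistant than parental cells under DMSO (log2 difference 2.31, SE 0.15, adjusted p = 3e-05), a change that 0.906% of genes exceeded. With DAC in DAC-resistant cells the log2 difference was -0.19 (95% interval -0.55 to 0.16). Under DAC the lines differed by 0.39 (adjusted p = 0.052 by limma).

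**Figure D3:**
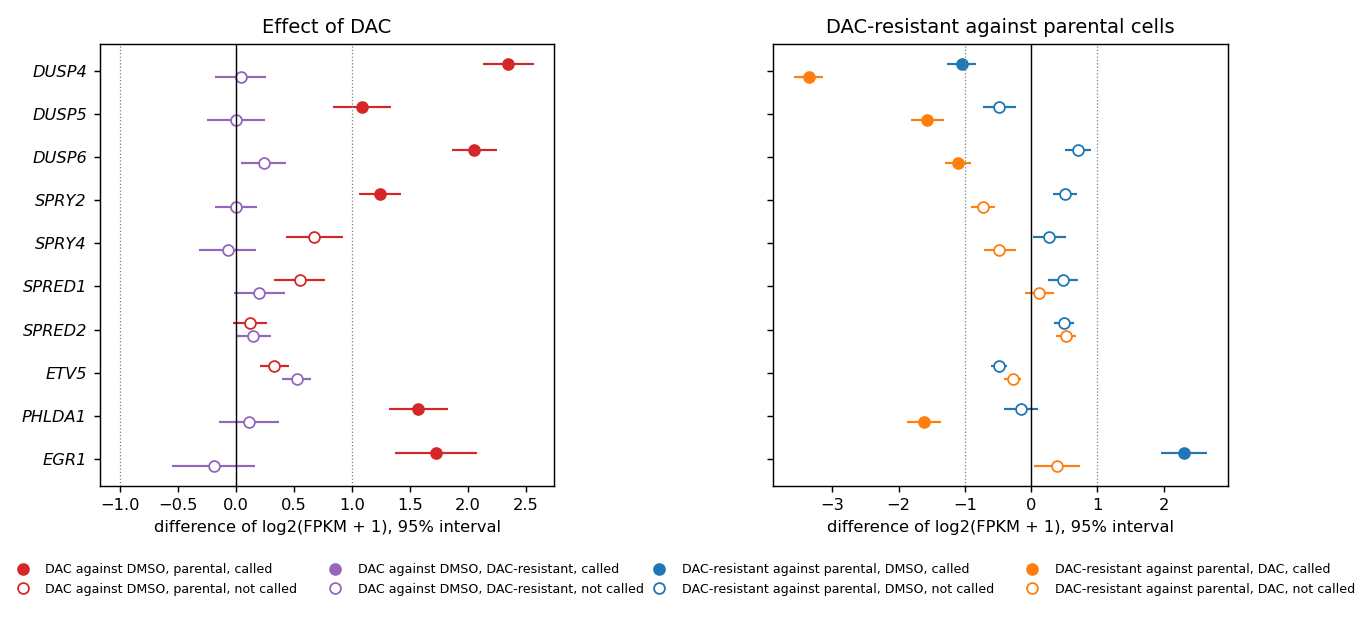
Differences of log2(FPKM + 1) for the 10 genes with 95% intervals from limma, on the left for DAC against DMSO in parental and DAC-resistant cells and on the right for DAC-resistant against parental cells under DMSO and under DAC. Filled points are calls and dotted lines mark the size a call needs; on the left 6 parental points and no DAC-resistant point are filled.

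Counted together, 6 of the 10 genes were called higher with DAC in parental cells (DUSP4, DUSP5, DUSP6, SPRY2, PHLDA1 and EGR1) and 0 lower, where 6.66% of all genes were called higher and 2.64% lower. PHLDA1 among the 6 could pass the filter only by being high in parental DAC libraries. An unadjusted p under 0.05 was reached by 9 of the 10, as by 62.5% of all genes, and voom called 8, the other 2 being SPRY4 (1.08) and SPRED1 (1.49), where it called 14.8% of all genes. The median log2 difference was 1.17, against 0.06 over all genes tested. In 9 of the 10 every parental DAC library lay above every parental DMSO library, which held for 44.9% of all genes, and SPRED2 was the exception. In DAC-resistant cells limma called 0 of the 10 with DAC, where 0.114% of all genes were called higher and 0.121% lower and 0 of 10 is therefore near the background. An unadjusted p under 0.05 was reached by 3 of the 10 (DUSP6, SPRED2 and ETV5), near the 27% of all genes. ETV5 alone had an adjusted p under 0.05. Voom called 0 of the 10, where it called 0.396% of all genes. The median was 0.08, against 0.01 over all genes, and 5 of the 10 had all DAC libraries above all DMSO libraries, where 29.9% of all genes did.

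The difference between the DAC effects of the lines was tested directly. It was called lower in DAC-resistant cells for the 6 genes called higher in parental cells and higher for 0, where 7.16% of all genes were called lower and 3.46% higher. The log2 differences of the effects were -2.31 for DUSP4 (adjusted p = 2.9e-05 by limma), -1.92 for EGR1 (0.00046), -1.82 for DUSP6 (4.6e-05), -1.46 for PHLDA1 (0.00036), -1.24 for SPRY2 (0.00016) and -1.09 for DUSP5 (0.0012). SPRY4 (-0.75, adjusted p = 0.0057) differed in the same direction without the size of a call. SPRED1 (-0.35, adjusted p = 0.066), ETV5 (0.2, adjusted p = 0.065) and SPRED2 (0.03, 95% interval -0.18 to 0.25) did not pass. Voom called 8 of the 10, SPRY4 (-1.2) and SPRED1 (-1.09) included, where it called 15.2% of all genes, and a constant of 0.1 gave a call for SPRY4 (-1.13). For PHLDA1 the filter favoured a lower effect in DAC-resistant cells, since it kept the gene for its parental DAC libraries alone. This test contains the parental DAC effect, so it is no separate evidence of it.

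Between the lines under DMSO, 1 of the 10 was called higher in DAC-resistant cells (EGR1) and 1 lower (DUSP4), where 4.45% of all genes were called higher and 4.28% lower. Libraries did not overlap for any of the 10, with 6 higher and 4 lower, as held for 41.7% and 36.9% of all genes. Under DAC, 4 of the 10 were called lower in DAC-resistant cells (DUSP4, DUSP5, DUSP6 and PHLDA1) and 0 higher, where 9.17% of all genes were called lower and 5.29% higher. The filter favoured a lower level in DAC-resistant cells for DUSP4, which passed it only through the parental libraries, and for PHLDA1. For DUSP4 this holds under DMSO too. All comparisons share libraries with others, the parental DMSO pair with both the parental DAC effect and the line difference, so the lists of calls are given side by side and no overlap of them is read.

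In the list of 12 RAS, RAF, MEK and ERK genes limma called 0 in each of the 5 comparisons, where 0.235% to 14.5% of all genes were called, so that 0 of 12 is near the background. An unadjusted p under 0.05 was reached by 3 to 10 of the 12 in a comparison, and by 27% to 69.9% of all genes. Voom called 1 between the lines under DAC, where it called 22.6% of all genes. It called 0 in the other comparisons, where it called 0.396% to 15.9% of all genes. NRAS stood at 59.5 and 58.1 FPKM in parental DMSO libraries, 51.7 and 52.3 FPKM in parental DAC libraries, 68.1 and 66.7 FPKM in DAC-resistant DMSO libraries and 79.1 and 75.3 FPKM in DAC-resistant DAC libraries. BRAF lay between 2.17 and 2.46 FPKM in all 8 libraries. MAPK3, which encodes ERK1, lay between 14.1 and 20.3 FPKM in all.

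Some other ERK output genes were also called higher with DAC in parental cells. Of 14 immediate early genes tested (of 19 listed), 6 were called higher with DAC and 0 lower, where 6.66% of all genes were called higher and 2.64% lower. The median log2 difference of the 14 was 0.93, against 0.06 over all genes, and KLF4 (-0.32) lay below 0. The 4 largest log2 differences were those of IER3 (3.13), FOS (1.75), JUN (1.74) and EGR2 (1.33), which are transcription factors apart from IER3, a short-lived stress response protein. EGR2 and NR4A2, the latter not called, reached 1 FPKM only in the 2 parental DAC libraries. Both could be tested only by being high there, and both enter the median of the 14. FOS, for one, measured 6.02 and 6.01 FPKM in parental DMSO libraries and 21.8 and 23.5 FPKM in parental DAC libraries. In DAC-resistant cells limma called 0 of the 14 with DAC, where 0.235% of all genes were called, so that 0 is near the background. An unadjusted p under 0.05 was found for 6 of the 14, against 27% of all genes, and voom called 0 (0.396% of all genes). Like EGR1, 5 of the 14 were called higher in DAC-resistant than parental cells under DMSO (4.45% of all genes), led by JUN (1.66), IER3 (1.6), FOS (1.54) and IER5 (1.07), while EGR2, a paralog of EGR1, stood at 0.179 and 0.229 FPKM there against 0.311 and 0.252 FPKM. The difference of the DAC effects was called lower for 6 of the 14, EGR2 included, and higher for 0, where 7.16% of all genes were called lower and 3.46% higher.

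Of 9 delayed ERK output genes tested (of 16 listed), 4 were called higher with DAC in parental cells, where 6.66% of all genes were (log2 differences in parentheses): CCND1, which encodes cyclin D1 (1.48), PLAUR, the urokinase receptor (1.44), the phosphate transporter SLC20A1 (1.2) and the sphingosine kinase SPHK1 (1.08). With DAC in DAC-resistant cells limma called 0 of the 9, again near the background of 0.235%. Of the 9, 5 had an unadjusted p under 0.05 (27% of all genes) and voom called 1 (0.396% of all genes). ETV4, a close relative of ETV5, reached 1 FPKM only in DAC-resistant libraries and so could be tested only by being high in that line. It stood at 0.144 and 0.0657 FPKM in parental DMSO libraries and 2.87 and 2.72 FPKM in DAC-resistant DMSO libraries (log2 difference 1.78, adjusted p = 1.2e-05 by limma). The list of other MAP kinase phosphatase, SPRY and SPRED genes holds 10, and the 7 of them tested were all phosphatases. Of these, DUSP1 (2.1) and DUSP2 (1) were called higher with DAC in parental cells and 0 lower, against the same 6.66% and 2.64% of all genes. DUSP1, the immediate early phosphatase of p38, JNK and ERK, went from 1.11 and 1.2 FPKM to 7.93 and 8.55 FPKM, and stood at 1.26 to 1.91 FPKM in the DAC-resistant libraries. DUSP9, which passed the filter only through the DAC-resistant libraries, was called higher in DAC-resistant than parental cells under DMSO (1.68) and under DAC (1.09). DUSP1 (-1.84) and DUSP10 (-1.82), a phosphatase of p38 and JNK, were called lower in them under DAC. Of all genes, 4.45% were called higher under DMSO, and 5.29% higher and 9.17% lower under DAC.

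**Figure D4:**
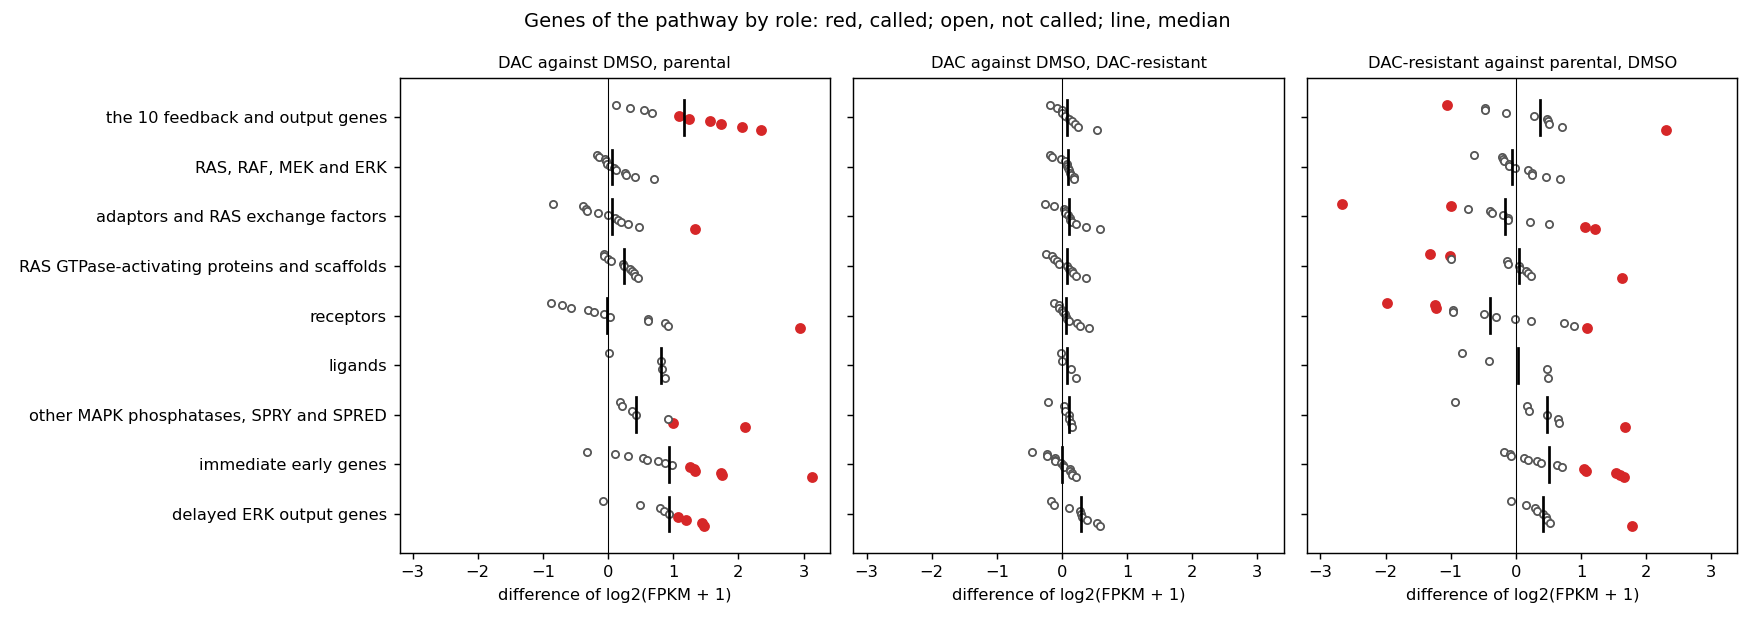
Differences of log2(FPKM + 1) for the 10 genes and for the tested genes of 8 lists by role in the pathway, in 3 comparisons, with a vertical line at each list's median. Calls (red) in parental cells lie mainly among the 10 genes and the immediate early and delayed output lists, the list of RAS, RAF, MEK and ERK genes holds none in the comparisons drawn, and the panel for DAC in DAC-resistant cells holds none at all.

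Of the 39 genes tested in the lists of receptors, ligands, adaptors and exchange factors, and RAS GTPase-activating proteins and scaffolds (which act at RAS or at RAF), 2 (5.13%) were called with DAC in parental cells, where 9.31% of all genes were, and voom called 8 (20.5%), where it called 14.8% of all genes. Between the lines under DMSO 11 (28.2%) were called, where 8.73% of all genes were. Log2 differences are given in parentheses. The 2 called by limma in parental cells were the RAS exchange factor RASGRP3 (1.33), 1 of 12 adaptors and exchange factors, and PDGFRB (2.94), 1 of 12 receptors. Both reached 1 FPKM only in the parental DAC libraries and could be tested only by being high there. With DAC in parental cells limma called 0 of 11 RAS GTPase-activating proteins and scaffolds and 0 of 4 ligands. These 2 lists had 7 and 3 genes at an unadjusted p under 0.05 (62.5% of all genes), and voom called 0 and 3. PDGFRB went from 0.146 and 0.111 FPKM to 7.22 and 8.16 FPKM. In DAC-resistant against parental cells under DMSO, the adaptors SHC1 (1.21) and GRB2 (1.06) and the GTPase-activating protein RASA3 (1.63) were higher. The exchange factor RASGRP4 (-2.67), the adaptor GAB2 (-1) and the GTPase-activating proteins RASAL3 (-1.32) and RASAL2 (-1.01) were lower there, RASGRP4 having passed the filter only through the parental libraries. Of the receptors, FLT3 (1.09) was higher and CSF2RA (-1.98), KIT (-1.24) and CSF3R (-1.23) were lower. The ligand list had 0 calls there, 4 of 4 genes at an unadjusted p under 0.05 (61.9% of all genes) and 1 call by voom (15.9%). Between the lines under DAC, 13 of the 39 (33.3%) were called, where 14.5% of all genes were, and voom called 18 (46.2%), where it called 22.6%. Of the 12 receptors, 4 were lower in DAC-resistant cells under DAC, led by PDGFRB (-2.26), KIT (-2.09) and CSF1R (-1.96), and 1 was higher, FLT3 (1.36). Of the ligands, the EGF receptor ligand HBEGF was lower there (-1.29).

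Monocytic markers were also called with DAC in parental cells and between the lines. With DAC in parental cells, 3 of the 12 were called higher, CD14 (3.05), LYZ (1.91) and MPO (1.42), and 1 lower, CTSG (-1.02), where 6.66% of all genes were called higher and 2.64% lower. CD14, the lipopolysaccharide co-receptor of monocytes, went from 1.45 and 1.58 FPKM to 19.0 and 20.8 FPKM and stood at 0.75 to 1.37 FPKM in DAC-resistant libraries, of which 1 alone reached 1 FPKM. With DAC in DAC-resistant cells limma called 0 of the 12 (0.235% of all genes). Of the 12, 5 had an unadjusted p under 0.05 (27% of all genes) and voom called 0 (0.396% of all genes). Between the lines under DMSO, ITGAM (-1.4), LYZ (-1.31) and CD33 (-1.03) were called lower in DAC-resistant cells and CTSG (1.39) higher, where 4.28% of all genes were called lower and 4.45% higher. Under DAC, 5 of the 12 were called lower there and 1 higher (9.17% and 5.29% of all genes), led by LYZ (-3.57), CD14 (-3.32), CTSG (2.47) and ITGAM (-2.19). The summed level of the list was 627 to 650 FPKM in parental DMSO, 655 to 664 FPKM in parental DAC, 618 to 647 FPKM in DAC-resistant DMSO and 631 to 656 FPKM in DAC-resistant DAC libraries. A few abundant genes that moved in opposite directions weigh most in this sum, so it does not show that the markers were stable. Under DMSO, AZU1 had a mean of 248 FPKM in parental and 144 FPKM in DAC-resistant cells, and CTSG 105 and 277 FPKM. The part of these markers in the changes of the 10 genes was not tested.

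The genes with the pattern most like that of a member were sought over the 8 libraries among genes that have a symbol and a mean of at least 5 FPKM, as a description, since libraries of a group share their treatment. For DUSP6, the member with the highest mean, they were TENT4A (Pearson r = 0.997), SLC30A1 (0.996) and KDM2B (0.996) of 6861 genes compared. TENT4A followed the same order of groups over a smaller span, from 7.49 and 6.71 FPKM in parental DMSO libraries to 12.82 and 13.29 FPKM in parental DAC libraries, with 8.53 to 9.44 FPKM in DAC-resistant ones. For DUSP4, the member with the largest change, they were the chemokine CCL2 (0.999), the calcium-binding protein S100A9 (0.999) and RESF1 (0.998) of 6862 compared. CCL2 measured 3.48 and 3.6 FPKM in parental DMSO libraries, 90.66 and 89.56 FPKM in parental DAC libraries and 0.16 to 0.45 FPKM in DAC-resistant ones, so that it too was low in the DAC-resistant line with and without DAC.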

How the data were processed

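RNA was sequenced from 8 libraries (parental and DAC-resistant THP-1 cells, DMSO or DAC, 2 each). The authors trimmed reads with cutadapt 1.9.1, aligned them to hg38 with HISAT2 2.1.0, processed alignments with SAMtools 1.6 and counted them with HTSeq 0.13.5. They deposited FPKM values multiplied by 1000, which were divided by 1000 here. All sample columns matched a sample by name, and 1264 repeat families were not used.

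Values were fitted as log2(FPKM + 1) by limma 3.58.1 in R 4.3.3, with variances moderated along a trend, as 4 group means in 1 fit of the 14899 genes that reached 1 FPKM in 2 or more libraries. Calls were made at an unadjusted p of 0.01 or lower and a log2 difference of 1 or more in size. Exon lengths of GENCODE 44 turned FPKM back into whole reads (tolerance 0.02 reads) for 88.3% of the 39592 genes above 0, the 10 members included. Another length served most others, 99.38% in all, and 245 genes stayed approximate. These reads gave the depth and a voom alternative. Intervals are 95% intervals of the fit.

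The members and the pathway lists were chosen with earlier results of these data known, and the lists come from general knowledge. All members are named, and of each other list at most the 4 called genes with the largest change per comparison, with the levels of NRAS, BRAF and MAPK3. Levels of the other core genes are not reported here. FOS, DUSP1, CD14, EGR2 and PDGFRB values illustrate their lists. EGR2 under DMSO in the DAC-resistant line, KLF4, NR4A2 and the means of AZU1 and CTSG under DMSO were added after their values were seen. The fits were also run on simulated counts with the same extra spread set for every gene and changes of a single size, unlike real libraries. The outcome is not reported here and no result rests on it. Alternatives were another pseudocount, no filter, a mean of at least 5 FPKM, TPM, quantile and upper-quartile scaling, a replicate block, only the libraries compared, variance not moderated, adjusted p-values, voom and leaving out each library.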

Additional observations from a re-analysis of the deposited data

Results flagged for a closer look

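For 6 genes, a direct test of the difference between the lines singled out the effect of DAC. DAC minus DMSO in DAC-resistant cells less the same in parental cells, on the log2(FPKM + 1) scale, was -2.31 for DUSP4, -1.92 for EGR1, -1.82 for DUSP6, -1.46 for PHLDA1, -1.24 for SPRY2 and -1.09 for DUSP5. PHLDA1 had passed the filter on low values through its 2 parental DAC libraries alone, which favours such a difference. Untreated DAC-resistant cells held more EGR1 (9.87-fold), DUSP6 (1.73-fold) and SPRY2 (1.48-fold) than untreated parental cells. They held less DUSP4 (5.34-fold), DUSP5 (1.78-fold) and PHLDA1 (1.32-fold). With 2 libraries per group no library could be set apart as an outlier.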

How the results depend on the processing

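Of 915 values of the 10 genes under the alternatives, 890 kept their direction and side of the threshold, 9 became calls, 4 stopped being calls and 12 changed sign. The cause was not tested. Much of this agreement was fixed in advance. The filters, the replicate block, only the libraries compared, variance not moderated and adjusted p-values leave a log2 difference as it was. So does leaving out a library that a comparison does not use. The calls that appeared, under a constant of 0.1 and voom in that order, were SPRY4 (1.02, 1.08) and SPRED1 (1.26, 1.49) with DAC in parental cells, SPRED1 (1.12, 1.33) between the lines under DMSO, and SPRY4 (-1.13, -1.2) for the difference of the DAC effects, where SPRED1 became a call by voom alone (-1.09). Those that went were DUSP5 without the first parental DMSO library (0.99 in parental cells, -0.99 for the difference of DAC effects) and DUSP4 between the lines under DMSO (-0.96 with quantile scaling, -0.94 without the second DAC-resistant DMSO library).

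Changes of sign were all near 0. With DAC in DAC-resistant cells, leaving out a library in turn gave -0.07 to 0.15 for DUSP4, -0.09 to 0.09 for DUSP5, -0.07 to 0.07 for SPRY2 and -0.16 to 0.01 for SPRY4, TPM gave 0.02 for DUSP5 and 0.03 for SPRY2, and voom gave 0 for SPRY2. For the difference of the DAC effects, leaving out a library gave -0.05 to 0.12 for SPRED2.

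A mean of at least 5 FPKM left 5 of the 10 genes to test, of which 3 were called with DAC in parental cells, 1 between the lines under DMSO, 1 under DAC and 3 for the difference. Between the lines under DMSO the count of 2 became 1 with quantile scaling, and it was 1 to 2 with a library left out. Counts of all genes called were 1387 with DAC in parental cells (2097 with a constant of 0.1, 573 with a mean of 5 FPKM, 2211 by voom), 35 in DAC-resistant cells (107, 6 and 59 in that order, 89 in TPM, 17 without moderated variance, 37 to 53 with a library left out), 1300 between the lines under DMSO (2263, 517 and 2369, 2036 in TPM), 2154 under DAC (3249, 908 and 3360) and 1583 for the difference (721 with a mean of 5 FPKM). Quantile scaling moved the share of higher calls from 71.6% to 59.2% with DAC in parental cells and from 32.6% to 42.8% for the difference.

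Replicate numbers shared only a number: deviations of same-numbered libraries correlated at -0.02 to 0.02. With the replicate block, 6, 0, 2, 4 and 6 of the 10 genes were called, as without it. Levels of DUSP4, PHLDA1 and SPRY4 outside parental DAC cells were 1.75 FPKM or less. So were those of SPRED1 in all libraries, DUSP5 in DAC-resistant cells and EGR1 in parental DMSO cells. These are low enough that the constant of 1 shortens their log2 differences.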
